A study of Mus musculus with 9 samples.

Results

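The genes followed here encode the proteins of extracellular microfibrils: the fibrillins, the latent TGF-beta binding proteins (LTBPs) and the microfibril-associated proteins. The list holds 9 genes, Fbn1, Fbn2, Ltbp1, Ltbp2, Ltbp3, Ltbp4, Mfap2, Mfap4 and Mfap5, and every probe set annotated to one of these symbols was taken. This gave 16 probe sets of 8 genes, out of 34945 probe sets with 1 gene symbol and 18193 genes in all. Fbn1 was not analysed here, since no probe set carried its symbol in the annotation used. The samples were mouse forelimb cells from Scx-GFP embryos, whose green fluorescence is driven by the tendon gene Scx. Limbs of 3 embryonic ages (E11.5, E12.5 or E14.5, in days after fertilization) were dissociated with trypsin, and green cells were sorted on either of a pair of instruments. There were 3 arrays per age, which the labels letter A to C, and all samples carried the same reporter. Each group thus holds whichever cells had the reporter on at that age. Separate embryos or litters are not named for the arrays of 1 age, so p-values measure only the spread between these samples.

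Microfibrils are thin beaded filaments of the extracellular matrix. Fibrillins polymerise end to end to form their backbone. LTBPs hold TGF-beta in a latent complex and dock on that backbone, and the small glycoproteins MFAP2 and MFAP5, also called MAGP-1 and MAGP-2, attach along it. Microfibrils are the scaffold on which elastin is laid down, and in tendon they lie around the cells and between the collagen fibres. FBN2 is known as a fibrillin of the embryo and of early matrix.

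Promoter windows of 250 bases before an annotated start, from RefSeq on build GRCm38.p6, were used for 5 of the 8 genes. None was used for Fbn2, Mfap4 or Mfap5. The 9 windows were those of Ltbp1, Ltbp2, Ltbp3, Ltbp4 and Mfap2. They are shown for 3 of the latent TGF-beta binding proteins, whose genes are compared with each other further on. The windows of Ltbp1, which is compared too, and of Mfap2 are described in words only. Capitals mark matches to the E-box CANNTG, the kind of site that basic helix-loop-helix factors such as scleraxis bind, and to GCGNGGGCG, the kind of site that EGR factors bind. Both strands were searched, and neither motif contains the other. The windows read 5′ to 3′ in the direction of the gene.
Ltbp2, chr12:84876492-84876741, minus strand: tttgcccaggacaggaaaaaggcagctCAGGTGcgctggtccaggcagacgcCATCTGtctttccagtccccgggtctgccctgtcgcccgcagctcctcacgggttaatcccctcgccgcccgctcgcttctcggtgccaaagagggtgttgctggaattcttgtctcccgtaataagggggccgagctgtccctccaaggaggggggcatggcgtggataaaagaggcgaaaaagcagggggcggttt
Ltbp3, chr19:5740650-5740899, plus strand: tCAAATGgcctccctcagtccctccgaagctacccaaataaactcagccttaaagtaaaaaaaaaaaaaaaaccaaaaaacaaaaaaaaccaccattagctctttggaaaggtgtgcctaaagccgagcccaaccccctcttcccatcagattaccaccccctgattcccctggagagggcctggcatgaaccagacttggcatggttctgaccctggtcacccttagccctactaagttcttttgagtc
Ltbp4, chr7:27333649-27333898, minus strand: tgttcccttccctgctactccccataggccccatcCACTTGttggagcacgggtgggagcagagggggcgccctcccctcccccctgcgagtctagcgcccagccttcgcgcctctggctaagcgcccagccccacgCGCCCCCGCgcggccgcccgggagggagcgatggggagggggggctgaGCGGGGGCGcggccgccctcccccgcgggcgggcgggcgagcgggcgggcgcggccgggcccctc
The Ltbp2 window holds 2 E-box matches, CAGGTG and CATCTG, that begin 223 and 198 bases before the start. The Ltbp3 window holds 1, CAAATG, at its far end, 249 bases before the start. The Ltbp4 window shown, 1 of 3 used for this gene, holds 1 E-box match, CACTTG, and 2 EGR matches 113 and 65 bases before the start. An E-box match was present in 66.2% and an EGR match in 4.70% of the 32851 windows of this length for all genes. Another Ltbp4 window, from 27333664 to 27333913, largely overlaps the one shown and holds 2 E-box and 2 EGR matches. Its 2 EGR matches and its CACTTG are the same sites as in the window shown, and CACCTG is added. The third Ltbp4 window, from 27337613 to 27337862, holds 1 E-box match and no EGR match, with a GC content of 64.4%. The Ltbp1 window from 75005279 to 75005528 and the Mfap2 window from 141010431 to 141010680 hold no match to either motif. The Ltbp1 window from 75178531 to 75178780 holds 2 E-box matches and the Mfap2 window from 141010174 to 141010423 holds 1, with no EGR match in either. The GC content of the 3 windows printed was 61.6% for Ltbp2, 47.2% for Ltbp3 and 79.2% for Ltbp4, against a median of 52.4% over all windows. A match is a description of the letters and not evidence of binding.

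The sort was checked against marker genes. Scx gave signals of 14811, 21375 and 21828 on the E11.5 arrays, 17214, 16654 and 16100.5 on the E12.5 arrays and 9811, 8692 and 14952.5 on the E14.5 arrays, in arrays A, B and C. Tnmd, a gene of differentiated tendon cells, had signals of 42.0, 14.4 and 7.80 on the E11.5 arrays, 30.9, 129 and 163 on the E12.5 arrays and 9398, 6005 and 8797 on the E14.5 arrays, so this marker of the labelled tendon identity was near or below the floor of 22.7 at E11.5. Signals are MAS5 intensities on a linear scale, and for log2 values any signal under 22.7, the 25th percentile, was raised to that floor. Array E14.5 A stood apart. Its summed log2 signal over 10 cartilage markers was 125, against 100.0 in E14.5 B and 87.8 in E14.5 C. The same sum lay between 76.7 and 82.9 at E11.5 and between 94.7 and 99.1 at E12.5. Changes of several of the measured genes, and their calls for E14.5 over E11.5, are therefore also given without E14.5 A. The pair tests and the partner lists further on are given only with it. In these bulk samples, fewer cells of a type and less RNA per cell cannot be told apart.

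Fbn2, the fibrillin measured here, exceeded 90.6, the median of all signals, in every array and rose after E12.5. Its representative probe set, 1454830_at, had signals of 6228, 10656.5 and 8954 on the E11.5 arrays, 7201, 9619.5 and 9793 on the E12.5 arrays and 15198, 13679.9 and 18590.0 on the E14.5 arrays. The 3 arrays of E14.5 lay above all 6 earlier arrays, and the 2 earlier stages overlapped. At E14.5 Fbn2 averaged 15823 ± 2514, against 8613 ± 2234 at E11.5 (SD, n = 3 each), a log2 change of 0.90 ± 0.22 (SE) with an adjusted p of 0.0100 in limma. Against E12.5 (8871 ± 1449) the log2 change was 0.84 with an adjusted p of 0.0251. The other Fbn2 probe set, 1422831_at, gave signals of 3239, 6659 and 7003 on the E11.5 arrays, 3765, 6917 and 7305 on the E12.5 arrays and 8853, 10599.6 and 15045 on the E14.5 arrays. Its log2 change was 1.07 at E14.5 over E11.5, but its arrays within a stage were further apart. The adjusted p was 0.0536 in limma over all probe sets. At E14.5 over E12.5 the log2 change was 0.96 with an adjusted p of 0.118, so this probe set was called in neither comparison. Array A gave the lowest signal of this probe set at every stage. The change of Fbn2 from E12.5 rested on single arrays of either stage. Leaving out E12.5 A or E12.5 B gave log2 changes of 0.69 and 0.90 with adjusted p-values of 0.0902 and 0.0509, and leaving out E14.5 A or C gave 0.86 and 0.71 with 0.0545 and 0.0834.

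**Figure D1:**
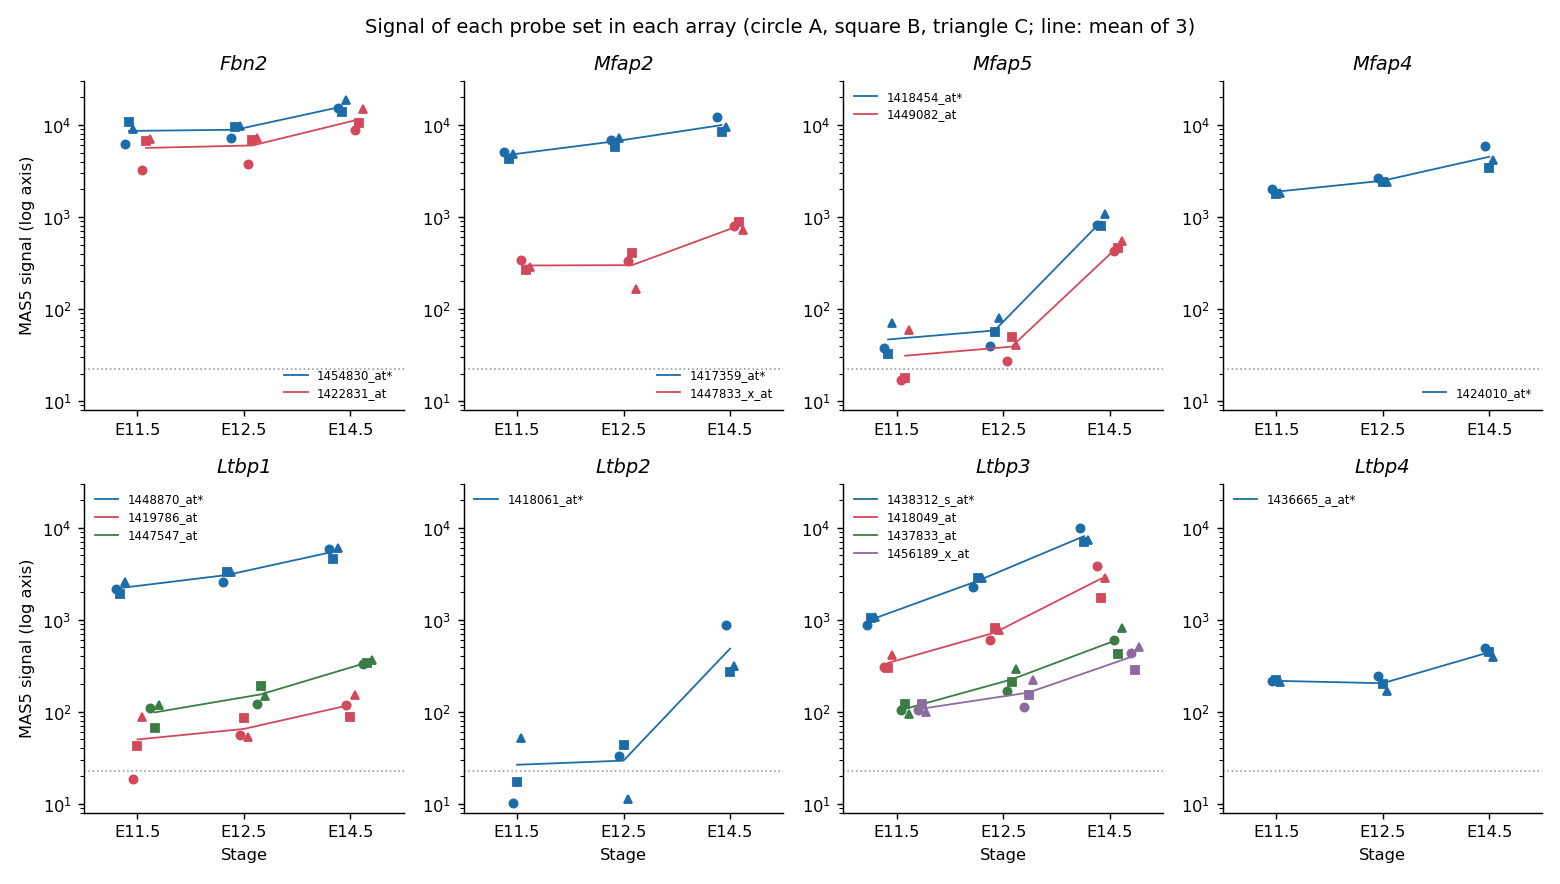
MAS5 signal (log axis) of the 16 probe sets of 8 microfibril genes by stage, with 1 panel per gene. Circles, squares and triangles are arrays A, B and C, lines join the means of 3 arrays, an asterisk marks the probe set that represents the gene, and the dotted line is the floor of 22.7. The E14.5 points lie above those of both earlier stages in every tested probe set, and Mfap5 and Ltbp2 stay under 90.6 until E14.5.

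Mfap2 and Mfap5 are the genes of the small glycoproteins. Mfap2 had signals of 5133, 4257 and 4816 at E11.5 for 1417359_at, 6952, 5697 and 7307 at E12.5 and 12123, 8393 and 9398 at E14.5. Successive stages did not overlap. The E14.5 arrays averaged 9971 ± 1930, against 4736 ± 444 at E11.5, a log2 change of 1.06 ± 0.17 with an adjusted p of 0.00117. Against E12.5 Mfap2 rose by a log2 value of 0.57 with an adjusted p of 0.0403. That call rested on single arrays. It was lost without either E11.5 A or C, without any 1 of the E12.5 arrays, and without E14.5 A or C. Without E14.5 A the log2 change was 0.43 with an adjusted p of 0.107. The second Mfap2 probe set, 1447833_x_at, of a kind that can bind related sequences, had signals of 338, 268 and 288 on the E11.5 arrays, 332, 405 and 164 on the E12.5 arrays and 794, 889 and 725 on the E14.5 arrays. It placed the whole change after E12.5, with log2 values of 1.51 at E14.5 over E12.5 and of -0.081 at E12.5 over E11.5. The 2 Mfap2 probe sets thus differed in the first interval, where 1417359_at gave a log2 change of 0.49 and an adjusted p of 0.194 that missed the threshold.

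Mfap5, whose protein binds fibrillins and has been tied to elastic fibre and collagen matrix, was low at both earlier stages and rose between E12.5 and E14.5. Probe set 1418454_at had signals of 37.9, 32.6 and 70.1 on the E11.5 arrays, 39.3, 56.8 and 79.9 on the E12.5 arrays and 814, 797 and 1066 on the E14.5 arrays. The lowest E14.5 array (797) was far above the highest earlier array (79.9). All 6 earlier arrays were under 90.6, the median of all signals, which a gene had to exceed in at least 3 of 9 arrays to be tested, so Mfap5 entered the test only through E14.5. It averaged 892 ± 151 at E14.5, against 46.9 ± 20.3 at E11.5, with a log2 change of 4.32 ± 0.32 and an adjusted p of 1.2e-05. Over E12.5 (58.7 ± 20.4) the log2 change was 3.97 with an adjusted p of 7.1e-05. The second probe set, 1449082_at, had signals of 17.0, 17.7 and 58.9 on the E11.5 arrays, 27.3, 49.5 and 40.7 on the E12.5 arrays and 433, 457 and 549 on the E14.5 arrays, a log2 change of 3.94 ± 0.37 at E14.5 over E11.5. In both probe sets the larger change lay in the second interval. Both passed the filter only through E14.5, which itself favours a larger second interval. For 1449082_at, with 2 of 3 E11.5 arrays under the floor, the difference between the intervals was 3.36. It was not called in limma, with an adjusted p of 0.0944 over all probe sets. With the floor raised to the median of all signals, the change of Mfap5 was 3.29 at E14.5 over E11.5.

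Mfap4 encodes a fibrinogen-domain glycoprotein that binds elastin and fibrillin and is known from blood vessels, skin and lung. Its probe set 1424010_at had signals of 2031, 1790.4 and 1836 on the E11.5 arrays, 2626, 2401 and 2413 on the E12.5 arrays and 5954, 3391 and 4204 on the E14.5 arrays. Each stage lay above the one before with no overlap. The E14.5 arrays averaged 4516 ± 1310, against 1886 ± 128 at E11.5, a log2 change of 1.22 ± 0.19 with an adjusted p of 0.00101. Against E12.5 (2480.2 ± 126) the log2 change was 0.83 with an adjusted p of 0.0149. Array E14.5 A, which was high for cartilage markers, also gave the highest Mfap4 signal. Without it the log2 changes were 1.0 over E11.5 and 0.61 over E12.5, with adjusted p-values of 0.00136 and 0.0265.

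Among the LTBP genes, Ltbp3 changed in both intervals. Its protein carries latent TGF-beta, and the gene is known for roles in skeleton and teeth. Probe set 1438312_s_at had signals of 881, 1043 and 1081 on the E11.5 arrays, 2240.3, 2814 and 2859.6 on the E12.5 arrays and 9877.5, 6957 and 7397 on the E14.5 arrays. The 3 stages were well apart, with 2240.3 the lowest E12.5 array and 1081 the highest E11.5 array. At E12.5 Ltbp3 averaged 2638 ± 345, against 1002 ± 106 at E11.5, a log2 change of 1.39 ± 0.17 with an adjusted p of 0.00439. At E14.5 it averaged 8077 ± 1575, a log2 change of 1.61 ± 0.17 over E12.5 with an adjusted p of 3.2e-04 and of 3.0 ± 0.17 over E11.5 with an adjusted p of 3.1e-06. The probe sets 1418049_at, 1437833_at and 1456189_x_at gave log2 changes of 2.98, 2.46 and 1.88 at E14.5 over E11.5. In the first interval they gave 1.1, 1.03 and 0.53, none past the threshold over all probe sets, with adjusted p-values of 0.121, 0.128 and 0.506. With the mean of its 4 probe sets in place of the representative one, the first-interval change was 1.01 and its adjusted p was 0.0544. Leaving out E14.5 A moved the change at E14.5 over E11.5 to 2.85.

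Ltbp2 was the other LTBP gene with a large change. LTBP2 differs from the other members in that it does not bind latent TGF-beta, and it is known for roles in microfibrils of the eye. Its probe set 1418061_at had signals of 10.3, 17.3 and 52.2 on the E11.5 arrays, 33.2, 44 and 11.3 on the E12.5 arrays and 873, 268 and 313 on the E14.5 arrays. The earlier arrays were all under 90.6, and 2 of 3 at E11.5 and 1 of 3 at E12.5 were under the floor, so Ltbp2 too was tested only through E14.5. The mean at E14.5 was 485 ± 337, against 26.6 ± 22.4 at E11.5, with a log2 change of 3.81 ± 0.48 and an adjusted p of 3.0e-04. Against E12.5 (29.5 ± 16.7) it was 3.70 with an adjusted p of 8.7e-04. The size depends on the floor: the change over E11.5 was 2.21 with the floor at the median of all signals and 4.32 with no floor. Array E14.5 A was well above the other E14.5 arrays for Ltbp2. Without it the log2 change over E11.5 was 3.28 with an adjusted p of 5.3e-04.

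Ltbp1, whose protein carries latent TGF-beta into the matrix, exceeded 90.6 in every array of its main probe set. Probe set 1448870_at had signals of 2141, 1905 and 2579.97 on the E11.5 arrays, 2541, 3301 and 3329 on the E12.5 arrays and 5865, 4563 and 6004 on the E14.5 arrays. The first 2 stages overlapped by 1 array and E14.5 lay above both. The E14.5 mean was 5477 ± 795, against 2208 ± 343 at E11.5, a log2 change of 1.31 ± 0.18 with an adjusted p of 4.5e-04. Against E12.5 (3057 ± 447) it was 0.84 with an adjusted p of 0.0102. The first-interval change of 0.47 had an adjusted p of 0.230. A second probe set, 1447547_at, with means of 98.4 ± 28.3, 155 ± 35.2 and 344 ± 17.0 over the 3 stages, gave a log2 change of 1.85 at E14.5 over E11.5. The third, 1419786_at, was too low to be tested, with means of 50.03 ± 35.7, 65.1 ± 18.0 and 119 ± 31.4 at the 3 stages.

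Ltbp4, known for its part in elastic fibre assembly with fibulins, showed no called change before E12.5 and rose after it. Its probe set 1436665_a_at had signals of 215, 224 and 212 on the E11.5 arrays, 246, 199 and 167 on the E12.5 arrays and 488, 451 and 390.2 on the E14.5 arrays. The 2 earlier stages overlapped, and each E14.5 array lay above them. At E14.5 it averaged 443 ± 49.3, against 217 ± 6.46 at E11.5, a log2 change of 1.03 ± 0.16 with an adjusted p of 0.00105. Against E12.5 (204 ± 39.9) the log2 change was 1.13 with an adjusted p of 0.00146, and for E12.5 over E11.5 it was -0.10 with an adjusted p of 0.817.

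The counts were read against all 11575 genes tested. Of the 8 genes, 6 exceeded 90.6 in every array, and Ltbp2 and Mfap5 did so at E14.5 alone. For E14.5 over E11.5 all 6 of these rose, where 22.9% of all genes were called higher, and Ltbp2 and Mfap5 rose too. The median log2 change of the 6 was 1.14, against 0.00345 over all genes. In that comparison and in E14.5 over E12.5 the arrays of the 6 did not overlap, as was so, in the higher direction, for 27.3% and 20.6% of all genes. For E14.5 over E12.5 the 6 also rose, with a median of 0.84, where 12.6% of all genes were called higher. For E12.5 over E11.5 only Ltbp3 of the 6 rose, with 3.11% of all genes called higher, and the median of the 6 was 0.43. The arrays of E12.5 lay entirely above those of E11.5 for 3 of the 6 genes, Ltbp3, Mfap2 and Mfap4, and the same held for 15.8% of all genes. By probe set, 11 of the 15 tested exceeded 90.6 in every array. Of the other 4, the Ltbp2 probe set and both Mfap5 probe sets did so at E14.5 alone, and 1447547_at of Ltbp1 did so at each stage but not in every array. Of the 11, 10 rose at E14.5 over E11.5, where 17.3% of all probe sets were called higher. For E14.5 over E12.5 it was 9 of 11, where 8.6% were, and for E12.5 over E11.5 1 of 11, where 1.2% were. None of the 11 was called in limma for the difference between the intervals, described further on, where 0.33% of all probe sets were called higher and 2 of the 11 had an unadjusted p under 0.05. None of the 15 fell in a comparison of stages.

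Centring each array on its median log2 signal moved the median of all genes to -0.20 at E14.5 over E11.5, and 5 of the 8 genes kept the call. These 5 include Ltbp2 and Mfap5, which were above 90.6 at E14.5 alone. Over all 11575 genes, 1275 were called higher with centring, against 2646 without it. Of the 8 genes, those that missed the call were Fbn2, Mfap2 and Ltbp4, with adjusted p-values of 0.111, 0.0679 and 0.0907. Relative to the median of all genes, their log2 changes were 0.90, 1.06 and 1.02 both with and without centring. Centring takes 1 value per array from every probe set, so this equality was fixed in advance and is no check on these genes. For E14.5 over E12.5, 3 genes were called after centring, namely Ltbp2, Ltbp3 and Mfap5, and 4 without the 3 letter A arrays. Over all genes, 623 and 785 were called higher in these settings, against 1463 in the main fit. Of the 8 genes, those lost without the letter A arrays were Mfap4, Fbn2, Ltbp1 and Mfap2, with adjusted p-values of 0.0604, 0.0740, 0.109 and 0.172.

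**Figure D2:**
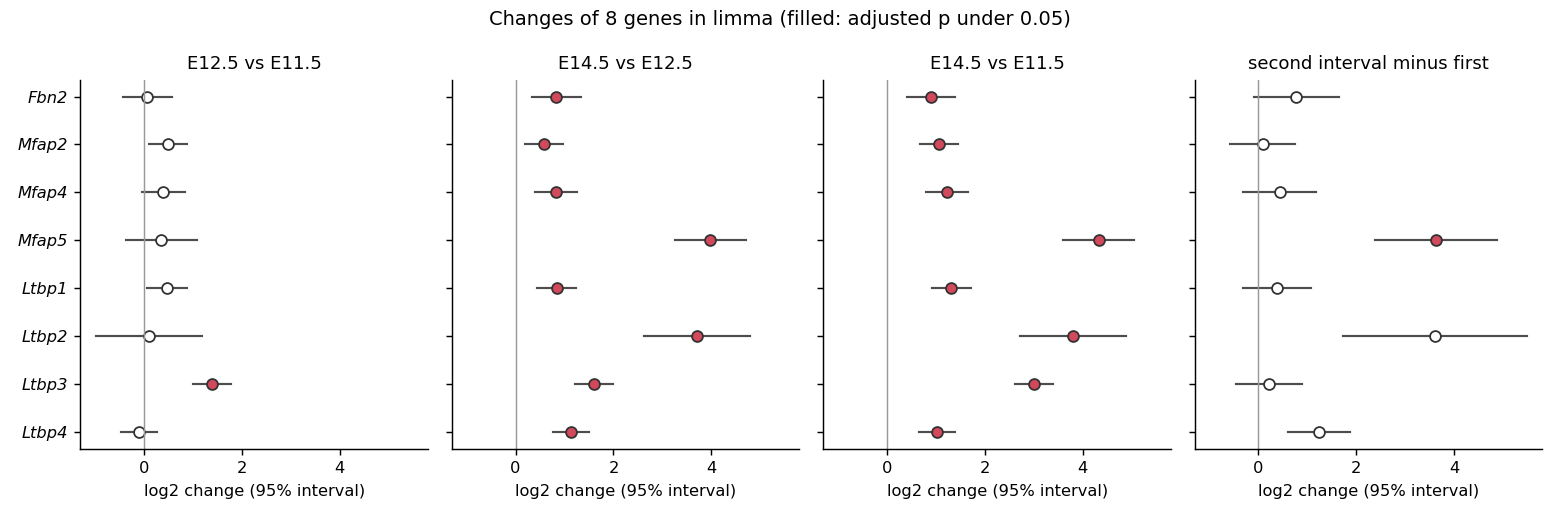
Log2 change of the 8 genes (points) with its 95% interval (lines) in 4 limma contrasts of all 9 arrays, filled where the adjusted p over all genes was under 0.05. All 8 points are filled for E14.5 over E12.5 and over E11.5, Ltbp3 alone is filled for E12.5 over E11.5, and Mfap5 alone for the second interval minus the first.

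Whether a gene moved differently in the 2 intervals was tested directly as the change from E12.5 to E14.5 minus the change from E11.5 to E12.5. Mfap5 was called, with a difference of 3.63 ± 0.56 and an adjusted p of 0.0220, where 0.631% of all genes were called in that direction. Mfap5 was tested only through E14.5, so the filter itself favours a larger second interval, and with no filter the adjusted p was 0.108. None of the 6 genes above 90.6 in every array was called in limma, and 1 of them, Ltbp4, had an unadjusted p under 0.05. The call of Mfap5 was also lost without E12.5 A, E12.5 B, E14.5 B or E14.5 C, with differences of 3.11, 3.64, 3.70 and 3.49 and adjusted p-values of 0.100, 0.0972, 0.0527 and 0.0544. Ltbp2 had a difference of 3.60 ± 0.83 but missed the threshold with an adjusted p of 0.105, and Ltbp4 had 1.23 ± 0.28 with an adjusted p of 0.0988. The other 5 genes ranged from 0.088 for Mfap2 to 0.77 for Fbn2. As a description, the first interval held 46.5% of the log2 change of Ltbp3, 45.8% of that of Mfap2, 35.8% for Ltbp1 and 32.4% for Mfap4. It held 8.05% for Mfap5, 7.07% for Fbn2 and 2.67% for Ltbp2, and for Ltbp4 it was -10.2%, of the opposite sign. The second interval spans more developmental time than the first, so these are changes per interval and not rates.

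Related genes were compared within each array, as the log2 difference between 2 members of a family, over 7 pairs. An exact permutation test of the F statistic over all 1680 assignments of the arrays to stages was used, with adjustment over the 7 pairs. The smallest p it can give is 0.00357. F takes the 3 stages together, so each p is for any difference between stages and not for 1 interval or change. All pairs but that of Mfap5 and Mfap2 were drawn from the same LTBP genes, so their results are not independent of each other. The test passed for 6 of 7 pairs. Of these, 4 hold Mfap5 or Ltbp2, which were under 90.6 before E14.5, and 2 are of genes above it in every array, Ltbp3 with Ltbp1 and Ltbp4 with Ltbp3. The test exchanges arrays freely across letters. Deviations of same-letter arrays from their stage means had a positive r, except for letter B between E11.5 and E14.5. With the letter as a replicate block, an alternative chosen after seeing the data, none of 7 passed, with adjusted p-values from 0.0972 to 0.139. That test has 216 assignments and a smallest p of 0.0278, which Ltbp3 with Ltbp1 and Ltbp4 with Ltbp3 had before adjustment. Mfap5 gained on Mfap2 by 3.26 at E14.5 over E11.5 (exact permutation p = 0.0286, adjusted 0.0333), and the gain was 2.84, 3.34 and 3.60 in arrays A, B and C of E14.5. The size of that gain was 2.23 with the floor at the median of all signals. Ltbp3 gained on Ltbp1 by 0.92 in the first interval and 0.76 in the second, or 1.69 in all, none of them tested singly. Over the 3 stages together the exact permutation p was 0.00357 (adjusted 0.025). The 3 E12.5 arrays lay between 0.90 and 0.95 above the E11.5 mean and the E14.5 arrays between 1.44 and 1.89 above it, with no overlap. With the mean of each gene's probe sets the change was 1.06 in all, and the E12.5 arrays, at 0.36, 0.21 and 0.79, overlapped those of E11.5, which reached 0.32.

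Ltbp2 gained on Ltbp1 by 2.49 (exact permutation p = 0.0214, adjusted 0.03), with 3.45 in E14.5 A, 2.11 in B and 1.93 in C. With the floor at the median of all signals the gain was 0.90, with 1.85, 0.51 and 0.33 in A, B and C, and with no floor it was 3.0. The difference Ltbp4 minus Ltbp3 changed by -1.97 (exact permutation p = 0.00714, adjusted 0.025), and Ltbp4 minus Ltbp2 changed by -2.78 (exact permutation p = 0.0214, adjusted 0.03). Ltbp4 minus Ltbp2 changed by -1.18 with the floor at the median of all signals and by -3.29 with no floor. For Ltbp4 and Ltbp1 the difference changed by -0.29, with array values of -0.25, -0.00096 and -0.61 at E14.5, and the test did not call it (exact permutation p = 0.229, adjusted 0.229). The difference Ltbp3 minus Ltbp2 went both ways. It stood at 1.29 at E12.5 and at -0.81 at E14.5, each relative to E11.5 (exact permutation p = 0.0107, adjusted 0.025). Ltbp2 lay near or under the floor at the earlier stages. With the floor at the median of all signals the value at E14.5 turned to 0.79, and with no floor it was -1.32 with an adjusted p of 0.0667.

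**Figure D3:**
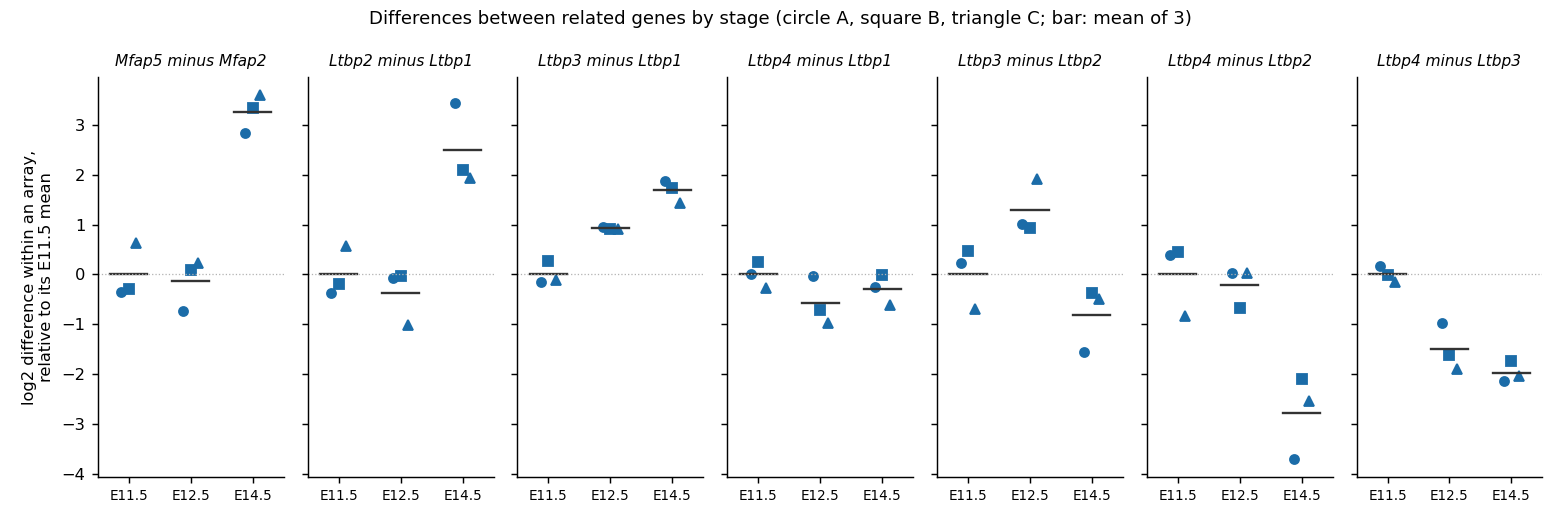
Log2 difference between 2 genes within each array, relative to its mean at E11.5 (vertical axis), by stage for 7 pairs of related genes. Circles, squares and triangles are arrays A, B and C and bars are means of 3. Mfap5 minus Mfap2 sits between 2.84 and 3.60 at E14.5, and Ltbp4 minus Ltbp1 stays between -0.98 and 0.25 at all stages.

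Markers of other cell types also moved over the stages, and their part in these results was not tested. The summed log2 signal of 8 mural markers, the genes of vascular smooth muscle and pericytes, lay between 58.2 and 58.8 at E11.5, between 61.1 and 63.0 at E12.5 and between 66.8 and 72.0 at E14.5. Of these, Cnn1 was under the floor in 8 of 9 arrays, and Myh11 was at most 36.5 in any array. Abcc9 (log2 change of 4.39 at E14.5 over E11.5), Cspg4 (2.37), Rgs5 (2.00) and Des (1.19) were called higher. Acta2 (0.48) and Pdgfrb (-0.13) were not called. Cspg4 had signals of 2489, 722 and 614 on arrays A, B and C of E14.5. The sum over 6 connective tissue fibroblast markers was 49.0 to 50.02, then 51.2 to 52.8, then 61.5 to 63.3 at the 3 stages. Of these, Dpt (log2 change of 6.34 at E14.5 over E11.5) and Cd34 (5.32) had the largest changes, Pdgfra (0.41) and Tcf7l2 (-0.13) were not called, and Pi16 was under the floor in 6 of 9 arrays. The sum over 6 endothelial markers was 30.4 to 36.1, then 32.9 to 36.2, then 40.1 to 42.3, with Tie1 under the floor in 8 of 9 arrays and Pecam1 in 4. The 8 tendon markers gave 73.8 to 76.1, then 79.1 to 84.2, then 97.8 to 101. Among them Scx was called lower at E14.5 over E11.5, with a log2 change of -0.81 and an adjusted p of 0.0164 in limma. The other 7 rose, Tnmd the most, by 8.15. Over all genes, 22.9% were called higher and 17.7% lower in that comparison. The 8 skeletal muscle markers gave 64.7 to 71.5, then 68.4 to 76.8, then 73.9 to 76.0, and the 5 epidermal markers gave 30.0 to 31.1, then 30.1 to 31.6, then 34.7 to 35.8. The 5 blood markers gave 28.8 to 32.7, then 28.8 to 30.6, then 28.3 to 31.2, and the 3 neural markers gave 19.2 to 20.4, then 20.3 to 21.4, then 17.3 to 19.9. Both lists held calls in both directions at E14.5 over E11.5. Hbb-bh1 fell (-3.44) and Csf1r rose (0.86) among blood markers, and Tubb3 fell (-1.88) and Stmn2 rose (1.60) among neural ones. Without E14.5 A, the array high for cartilage markers, all 8 genes kept their call for E14.5 over E11.5, with log2 changes between 0.91 for Mfap2 and 4.38 for Mfap5. In that setting 2372 of 11575 genes were called higher. Of the 8, Ltbp2 and Mfap5 were above 90.6 at E14.5 alone.

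Elastic fibre genes rose beside the microfibril genes. The list held 12 genes of elastin, fibulins, emilins and crosslinking enzymes, of which 10 were tested. At E14.5 over E11.5, 9 rose and none fell, with a median log2 change of 1.94, where 22.9% of all genes were called higher and their median was 0.00345. Lox, the enzyme that crosslinks elastin and collagen, had a log2 change of 4.37 ± 0.21 (8918 ± 1624 at E14.5, against 439 ± 125 at E11.5). Fbln5, which brings elastin onto microfibrils, had 3.54 ± 0.21, and Eln, the elastin gene, had 3.52 ± 0.28 (1431 ± 412 at E14.5, against 126 ± 36.3 at E11.5). Emilin3 had 2.31. The gene that missed the threshold, Fbln1, had a log2 value of 0.033 and is named after its values were seen. In the first interval 3 of the 10 rose, where 3.11% of all genes were called higher, Lox by 1.48, Efemp1 by 1.38 and Fbln5 by 1.18. In the second, 8 of 10 rose, where 12.6% were, with Lox at 2.89, Eln at 2.67 and Fbln5 at 2.36.

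Proteins that bind or process fibrillin made a list of 15 genes, of which 13 were tested. Of the 13, 12 exceeded 90.6 in every array. At E14.5 over E11.5, 6 of the 12 rose and none fell, with a median of 0.66, where 22.9% of all genes were called higher. The proteoglycan genes Dcn (log2 5.21 ± 0.25) and Bgn (3.68 ± 0.31), whose products bind collagen and microfibrils, had the largest changes. Dcn averaged 18197 ± 3893 at E14.5, against 498 ± 141 at E11.5. Adamtsl3 had 1.99, and Adamtsl4, whose protein binds fibrillin, had 2.08 and rose too, but was above 90.6 at E14.5 alone. Dcn was also the 1 gene of the 13 called in the first interval, with a log2 change of 2.26, where 3.11% of all genes were called higher. At E14.5 over E12.5, 5 of the 12 rose, where 12.6% were, led by Dcn (2.95) and Bgn (2.89). Itgb1, the beta-1 integrin chain through which cells bind fibrillin, was the 1 gene of the list called for a difference between the intervals (1.27, adjusted p of 0.0427 in limma). Over all genes, 0.631% were called higher in that contrast. The call lay near the threshold and was not followed under the alternatives.

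**Figure D4:**
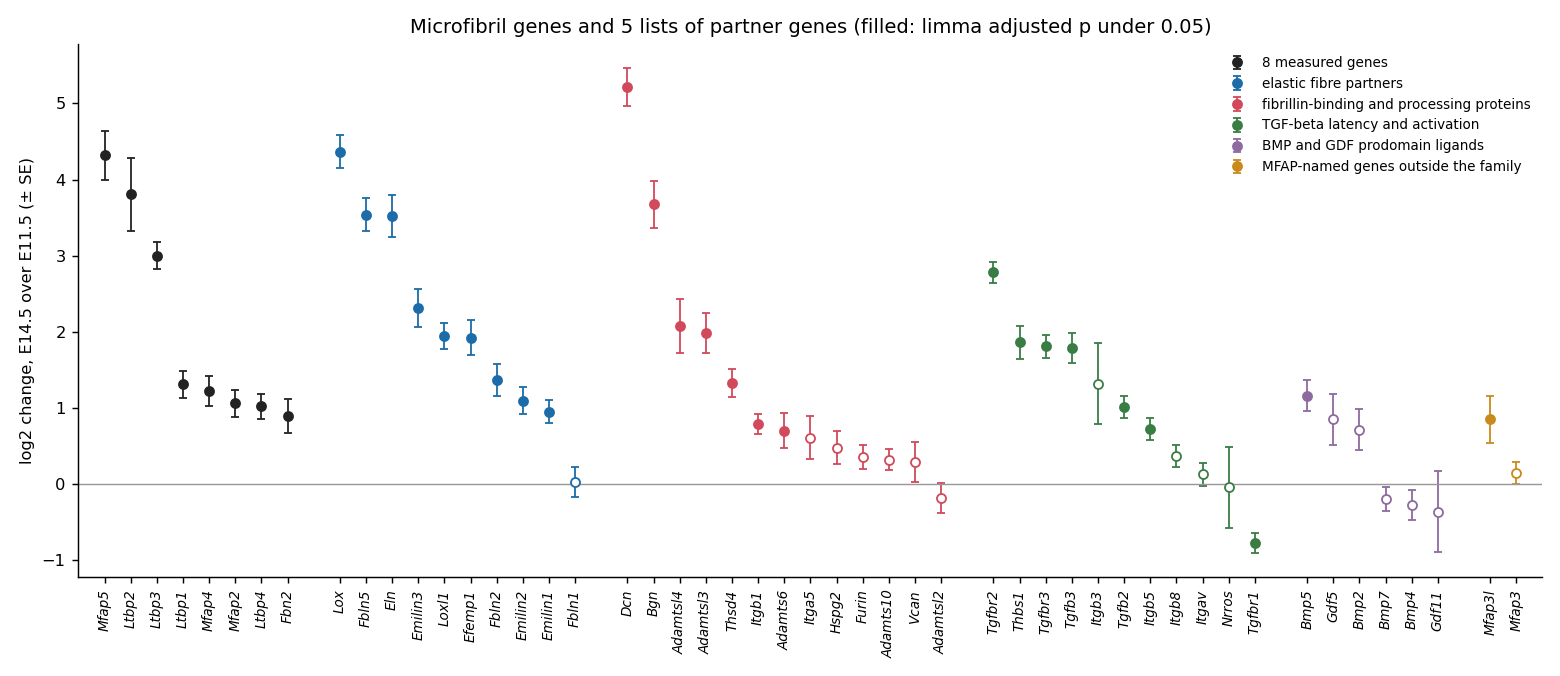
Log2 change at E14.5 over E11.5 (points, with SE bars) of the 8 microfibril genes and of the tested genes in 5 partner lists, filled where the adjusted p in limma was under 0.05. In the elastic fibre list 9 of 10 points are filled and above 0, and among the TGF-beta genes Tgfbr1 is the 1 filled point below 0.

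Genes of TGF-beta latency and reception, which act on the ligand that LTBPs hold, made a list of 14, of which 11 were tested. At E14.5 over E11.5, 6 rose and 1 fell, with a median of 1.01, where 22.9% of all genes were called higher and 17.7% lower. The receptor gene Tgfbr2 rose by a log2 value of 2.78 ± 0.14 (5763 ± 269 at E14.5, against 839 ± 67.5 at E11.5). The activator Thbs1 had 1.86, the coreceptor Tgfbr3 had 1.81 and the ligand Tgfb3 had 1.79. Tgfbr1, the type I receptor gene, fell by 0.77 (4421 ± 248 at E14.5, against 7558 ± 618 at E11.5). In the first interval Tgfbr2 (1.22), the ligand gene Tgfb2 (0.80) and Tgfbr3 (0.69) rose, as did Ltbp3, where 3.11% of all genes were called higher. In the second interval 5 of 11 rose, where 12.6% of all genes were called higher and 9.32% lower, with Tgfbr2 at 1.56 and Tgfb3 at 1.39, and Tgfbr1 fell by 0.52.

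Ligands of the BMP and GDF group, several of whose prodomains bind fibrillin, gave 1 call in each of 2 comparisons. Of 8 listed, 6 were tested. Over all genes, 22.9% were called higher at E14.5 over E11.5 and 3.11% at E12.5 over E11.5, so 1 of 6 in the first of these is no larger a share than among all genes. Bmp5 rose at E14.5 over E11.5 (1.16 ± 0.20), Gdf5, a gene of forming joints, rose at E12.5 over E11.5 (1.78 ± 0.34), and none was called at E14.5 over E12.5. Of 4 listed and 2 tested genes that carry the MFAP name but encode other proteins, Mfap3l had a log2 change of 0.85 and an adjusted p of 0.0491 at E14.5 over E11.5. Mfap3 had 0.15 and is named after its values were seen.

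The genes whose log2 signal followed Fbn2 most closely over the 9 arrays were Clcn5 (Pearson r of 0.986), Lrp1 (0.984), Septin2 (0.980), Zfp672 (0.979) and Fn1, the fibronectin gene (0.979). These are descriptions over arrays that share the stages and the array letters, with no test. Fn1 had signals of 7129.6, 12421 and 10045 on the E11.5 arrays, 8085, 10395.5 and 12025 on the E12.5 arrays and 14575, 13386 and 17929 on the E14.5 arrays. As for Fbn2, array A was the lowest of the 3 at both earlier stages. Among the 8 genes, r with Fbn2 ranged from 0.678 for Mfap2 to 0.882 for Mfap5.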

How the data were processed

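Gene expression was measured on Affymetrix Mouse Genome 430 2.0 arrays, 3 per stage, from 100 ng of total RNA per sample, per the labels. For each array the deposited table holds an intensity per probe set on a linear scale. The submitters' processing notes name MAS5 and Affymetrix Expression Console, version 1.1. The 2% trimmed mean was 500 on every array, which shows the authors' scaling, and no other normalization was added. Array medians ran from 68.7 to 118, and no 2 arrays were identical. At every stage the median was lowest in array A and highest in array C. The share of probe sets at or below the floor was highest in A and lowest in C at every stage. Precision is limited by the number of arrays.

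Of 45101 probe sets, 34945 had 1 symbol in the platform's annotation, 932 had several, 9160 were not listed and 64 were controls. Those with 1 symbol were used. The probe set with the largest mean log2 intensity stood for its gene, and sets ending in _x_at did so only where a gene had no other. Signals were raised to a floor of 22.7 and tested where they exceeded 90.6 in at least 3 of 9 arrays (11575 genes, 20885 probe sets). limma 3.58.1 in R 4.3.3 fitted all 9 arrays with 1 mean per stage. P-values are two-sided and were adjusted by Benjamini-Hochberg over all genes, or all probe sets, tested, and a call is an adjusted p under 0.05. The fit was tested on simulated data.

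The genes, partner lists, markers and tests were chosen with earlier results of these data known. Named genes are the 8 measured genes, from each list and contrast up to 4 called genes of largest change, those moving against their list, the 5 genes most like Fbn2 and a few sort markers. The planned comparison of Fbn1 with Fbn2, and the genes most like Fbn1, were not run.

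The array letters were checked as pairs. After stage means were removed, same-letter arrays had r of 0.520, 0.133 and 0.332 between E11.5 and E12.5 for A, B and C, of 0.310, 0.121 and 0.289 between E12.5 and E14.5, and of 0.313, -0.00516 and 0.238 between E11.5 and E14.5. Every r was thus positive except that of letter B between E11.5 and E14.5. Arrays of different letters were not compared. Any pairing would rest on these values and not on the labels. The main fit had no block, and array letter as a replicate block was an alternative. Other alternatives changed the floor, the filter, the scaling, the probe set rule, the variance prior and the arrays included.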

Additional observations from a re-analysis of the deposited data

How the results depend on the processing

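The small number of arrays, 3 per stage, limits these results. For E14.5 over E11.5, 141 of 144 single-gene results under the alternatives kept direction and call, and 8 of 8 genes were called under every alternative except median centring, with 5. These 8 include Ltbp2 and Mfap5, which were above 90.6 at E14.5 alone. Over all genes, 2646 of 11575 were called higher, against 1275 with centring and 2116 without the letter A arrays. For E14.5 over E12.5 the 8 calls became 3 with centring, 4 without the letter A arrays and 6 to 8 leaving out 1 array. Higher calls over all genes were 1463, against 623 with centring, 785 without the letter A arrays and 1010 to 1502 leaving out 1 array. For E12.5 over E11.5 the 1 call (Ltbp3) became 0 with the mean of probe sets and stayed 1 leaving out any array. Higher calls over all genes were 360, against 144 of 10729 with the mean of probe sets and 113 to 423 leaving out 1 array. The 1 call between intervals (Mfap5) became 0 with no floor, no filter or no letter A arrays, 2 with centring, where Ltbp2 (3.23, adjusted p of 0.0192) joined it, and 0 to 1 leaving out 1 array. Over all genes the higher calls were 73. They were 15 with no floor, 40 of 18193 with no filter, 25 without the letter A arrays and 79 with centring. By probe set, the 1 call for E12.5 over E11.5 became 0 with centring and 0 to 1 leaving out 1 array. Over all 20885 probe sets, 251 were called higher, and 118 with centring. The 13 calls for E14.5 over E12.5 became 8 with centring, 6 without the letter A arrays and 8 to 13 leaving out 1 array. Higher calls over all probe sets were 1797, against 780, 726 and 1073 to 1786 in those settings. The 1 call between intervals became 2 with the higher floor, quantile normalization or centring, 0 with no floor, no filter or no letter A arrays, and 0 to 1 leaving out 1 array. Over all probe sets the higher calls were 69. They were 166, 64 and 74 in the first 3 of these settings. With no floor, no filter or no letter A arrays they were 10, 46 of 34945 and 3. The cause of these shifts was not tested.

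The replicate block by array letter changed no call of a gene, with 8, 8, 1 and 1 called for E14.5 over E11.5, E14.5 over E12.5, E12.5 over E11.5 and the intervals, and it called 15 probe sets in each of the first 2. Over all genes the block called 2895, 1717, 454 and 78 higher, and over all probe sets 4069 and 2190 in the first 2. For the pairs of related genes, a block added after seeing the data left 0 of 7 called, against 6. Its exact permutation test cannot give a p under 0.0278, so a single pair could not pass after adjustment over 7 pairs. The counts are therefore not like for like.

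Some directions turned. At E12.5 over E11.5, Fbn2 went to -0.022 with centring, to -0.0093 without the letter A arrays and to between -0.15 and 0.23 leaving out 1 array. Ltbp2 went to -0.12 without the letter A arrays and to between -0.13 and 0.50 leaving out 1 array, and Ltbp4 lay between -0.25 and 0.030. Between the intervals, Ltbp3 went to -0.079 without the letter A arrays and to between -0.015 and 0.34 leaving out 1 array, and Mfap2 to -0.050 and to between -0.13 and 0.23. Over the pairs, Ltbp3 minus Ltbp2 turned to 0.79 with the higher floor and was -1.32 with no floor.

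Over all genes, centring moved the median to -0.20, -0.16 and -0.12 for E14.5 over E11.5, E14.5 over E12.5 and the intervals. The calls for E14.5 over E12.5, 57.6% of them higher, were 2542, against 894 with centring (69.7% higher) and 1084 without the letter A arrays (72.4%). For E14.5 over E11.5 they were 4691, against 2333 with centring. For E12.5 over E11.5 they were 411, against 167 with the mean of probe sets, 180 with centring, 182 with no filter and 249 without the letter A arrays. Between the intervals they were 89, against 220 with the higher floor, 39 with the mean of probe sets, 55 with no filter, 19 with no floor, 59 with the trended prior and 28 without the letter A arrays.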
